A study of Mus musculus with 6 samples.

Results

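Cytosolic sensors of foreign RNA and DNA were examined in LPS-stimulated N9 microglia. The set holds 10 named genes of the 54532 in the deposited count table, taken by gene symbol, and all 10 were found there. They are the RNA sensors Ddx58, Ifih1 and Dhx58, the double-stranded RNA-activated kinase Eif2ak2, the Z-nucleic acid sensor Zbp1, the RNA editing enzyme Adar, the adaptors Mavs and Tmem173, and the kinases Tbk1 and Ikbke. N9 is an immortalized line of mouse microglia, and lipopolysaccharide (LPS) is a bacterial cell wall component that is sensed outside the cytosol by Toll-like receptor 4. In 3 samples N9 cells were untreated (control), and in 3 samples they received LPS at 1 µg/ml for 6 h. Both groups were grown in RPMI medium with serum and antibiotics, and RNA-seq reads were counted per gene. The labels do not say whether the replicates came from separate cultures, so p-values measure the spread between these samples, which may be technical. The cells are a single immortalized line, and nothing here was measured in tissue.

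Cells detect viral nucleic acids in the cytosol through a short chain of proteins. RIG-I (Ddx58) and MDA5 (Ifih1) bind double-stranded RNA and signal through MAVS on mitochondria, LGP2 (Dhx58) modulates them, and cytosolic DNA is sensed by cGAS, whose product activates STING (Tmem173). Both branches meet at TBK1 and IKK-epsilon (Ikbke), which phosphorylate the transcription factors IRF3 and IRF7 to switch on type I interferon. PKR (Eif2ak2) halts translation when it binds double-stranded RNA, ZBP1 binds Z-form nucleic acids and can trigger cell death, and ADAR edits adenosines in double-stranded RNA so that the cell's own transcripts are less visible to MDA5 and PKR. Several of these genes are known to be interferon-inducible.

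The libraries held between 16363767 and 17956772 counted reads. Microglia and macrophage markers were abundant, with a summed level of 2331 to 2577 CPM over 15 genes (CPM, a gene's reads scaled to the normalized library total), although Sall1, P2ry12 and Aif1 were at or below 9 counts in every library. Transcripts of 18 hepatocyte markers stood out in control replicates 2 and 3, at 25.6 and 34.9 CPM summed, against 5.07 to 6.76 CPM in the other libraries. Most of the level in those other libraries came from Ambp. Its counts were 86, 124 and 112 in control and 74, 80 and 100 in LPS libraries. Alb had 2, 155 and 292 counts in control and 2, 0 and 0 in LPS libraries. The summed level of 7 neuronal markers was 4.79 to 5.56 CPM in control cells and 11.9 to 15.1 CPM with LPS, most of it from Tubb3, with Rbfox3 at or below 1 count. That of 6 oligodendrocyte markers was 33.5 to 40.0 CPM in control cells and 28.3 to 29.6 CPM with LPS, most of it from Mbp, with Olig2 at 0. That of 6 astrocyte markers was 96.0 to 105 CPM, most of it from Gja1 and Aldh1l1. Gfap was at or below 10 counts and Aqp4 at or below 2 in every library. The summed level of 6 T and B cell markers was at or below 0.183 CPM. The part of these transcripts in the results was not tested, other than by leaving out control replicates 2 and 3. Without both, log2 fold changes were 4.57 for Ddx58, 3.68 for Ifih1 and 3.58 for Dhx58, against 4.41, 3.52 and 3.88 with all libraries. They were 1.82 for Ikbke, 1.61 for Eif2ak2, 1.49 for Adar and 0.50 for Tbk1, against 1.81, 1.62, 1.52 and 0.46. Mavs was at -0.05 and Tmem173 at -0.11, against 0.03 and -0.11. Since this fit has 1 control library, it holds no measure of the spread between control libraries.

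Because several of the genes moved together, as described further on, their promoters were searched for interferon-linked motifs. RefSeq start sites on GRCm38.p6 gave windows of 300 bases, 250 before and 50 after the start, for 7 of the 10 genes and 9 starts, 3 of them for Adar. Dhx58, Zbp1 and Tmem173 had no entry. The core of the interferon-stimulated response element (ISRE core) was taken as GAAA, any 2 bases and GAAA again. The shorter IRF core was AA, any 2 bases and GAAA, which every ISRE core contains. The gamma-activated sequence was TTC, any 3 bases and GAA, and the NF-kappa B motif was GGGA, any 1 base and TTTCC. Both strands were searched, and the IRF core was added after the windows had been read. The windows that held a match are shown with that of Mavs for contrast, 5′ to 3′ on the gene's strand, with motif matches in capitals.
Ddx58, chr4:40239776-40240075, minus strand: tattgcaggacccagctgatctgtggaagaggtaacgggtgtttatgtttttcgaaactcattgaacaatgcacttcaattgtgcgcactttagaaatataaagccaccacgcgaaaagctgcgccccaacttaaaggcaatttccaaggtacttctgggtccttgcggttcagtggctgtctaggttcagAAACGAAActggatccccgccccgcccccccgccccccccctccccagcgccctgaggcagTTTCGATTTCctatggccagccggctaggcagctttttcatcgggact
Ifih1, chr2:62646206-62646505, minus strand: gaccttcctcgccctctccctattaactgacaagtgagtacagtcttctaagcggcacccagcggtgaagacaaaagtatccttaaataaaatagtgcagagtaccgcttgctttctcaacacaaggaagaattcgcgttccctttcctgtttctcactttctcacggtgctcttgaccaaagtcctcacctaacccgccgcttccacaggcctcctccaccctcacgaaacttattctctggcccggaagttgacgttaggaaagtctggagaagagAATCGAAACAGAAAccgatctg
Eif2ak2, chr17:78882523-78882822, minus strand: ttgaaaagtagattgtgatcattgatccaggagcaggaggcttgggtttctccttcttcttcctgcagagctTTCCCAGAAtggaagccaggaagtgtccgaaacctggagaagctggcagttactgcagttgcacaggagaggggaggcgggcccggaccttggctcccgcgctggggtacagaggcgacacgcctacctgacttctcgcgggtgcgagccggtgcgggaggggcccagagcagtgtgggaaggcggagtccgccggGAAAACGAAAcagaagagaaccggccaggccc
Adar, the start furthest downstream, chr3:89730468-89730767, plus strand: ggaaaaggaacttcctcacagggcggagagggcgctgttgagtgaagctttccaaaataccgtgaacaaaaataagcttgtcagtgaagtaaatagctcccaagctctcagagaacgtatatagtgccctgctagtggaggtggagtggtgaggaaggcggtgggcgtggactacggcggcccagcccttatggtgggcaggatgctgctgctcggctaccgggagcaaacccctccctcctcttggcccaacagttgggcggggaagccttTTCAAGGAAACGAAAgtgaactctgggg
Ikbke, chr1:131279514-131279813, minus strand: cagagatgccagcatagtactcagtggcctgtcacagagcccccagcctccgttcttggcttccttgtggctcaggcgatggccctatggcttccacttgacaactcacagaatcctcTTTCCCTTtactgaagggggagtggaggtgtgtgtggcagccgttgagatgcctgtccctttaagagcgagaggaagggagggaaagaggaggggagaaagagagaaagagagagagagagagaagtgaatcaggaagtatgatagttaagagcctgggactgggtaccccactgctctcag
Mavs, chr2:131233813-131234112, plus strand: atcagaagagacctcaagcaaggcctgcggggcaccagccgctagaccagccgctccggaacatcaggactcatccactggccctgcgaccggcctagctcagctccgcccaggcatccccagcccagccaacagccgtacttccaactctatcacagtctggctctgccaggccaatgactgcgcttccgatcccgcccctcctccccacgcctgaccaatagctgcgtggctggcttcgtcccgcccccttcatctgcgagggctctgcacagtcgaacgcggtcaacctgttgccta

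An ISRE core was present for Ddx58, Ifih1 and Eif2ak2, that is 3 of the 7 genes, and in 3.99% of all 27025 genes with a window. It began 2, 32 and 18 bases after the start, respectively, for Ddx58 on the opposite strand. An IRF core was present for 5 of the 7, the same 3 genes with Adar and Ikbke, and in 26.7% of all genes. This motif was chosen after the windows had been read, and the genes with an ISRE core hold it by definition. The count of 5 can therefore not be weighed against the share of all genes. Adar held it only in the window of the start furthest downstream, which lies at position 89730718, inside the gene. A gamma-activated sequence was present for Eif2ak2 and in the same Adar window (9.55% of all genes), and the NF-kappa B motif in none of the 9 windows (0.466% of all genes). The windows of Mavs and Tbk1 held no match. A match describes letters and does not show that a factor binds there.

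The comparison asked which of the sensing genes differed between LPS-stimulated and control N9 microglia. Of the 10 genes, 9 had enough reads to be tested and Zbp1 did not. LPS raised the RIG-I-like receptors by 11.4-fold to 21.2-fold, and Ikbke, Eif2ak2 and Adar by 2.87-fold to 3.51-fold. Tbk1 rose by 1.37-fold, and neither adaptor passed the test. A gene was called differentially expressed (DEG) at an adjusted p under 0.05 by edgeR's quasi-likelihood test, with Benjamini-Hochberg adjustment over the 12296 tested genes, and an absolute log2 fold change over 1.5. By this rule 6 of the 10 genes were DEG, all higher with LPS, where 2.4% of all tested genes were. Regardless of fold size, 7 passed the adjusted p as higher, where 18.7% of all tested genes did and 34.3% passed in either direction. Every LPS library lay above every control library for 7 of the 10 genes (23.7% of all tested genes), and for 8 the groups did not overlap in either direction (45.3%). In bulk RNA, a change in the number of cells with a transcript and a change in its amount per cell cannot be told apart. None was lower by edgeR, at an adjusted or unadjusted p under 0.05, or by DESeq2, where 15.7% of all tested genes were lower by edgeR. With upper-quartile normalization, which changed the split of all calls from 2294 higher and 1927 lower to 1845 higher and 2497 lower, 1 of the 10 was lower (Tmem173).

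**Figure D1:**
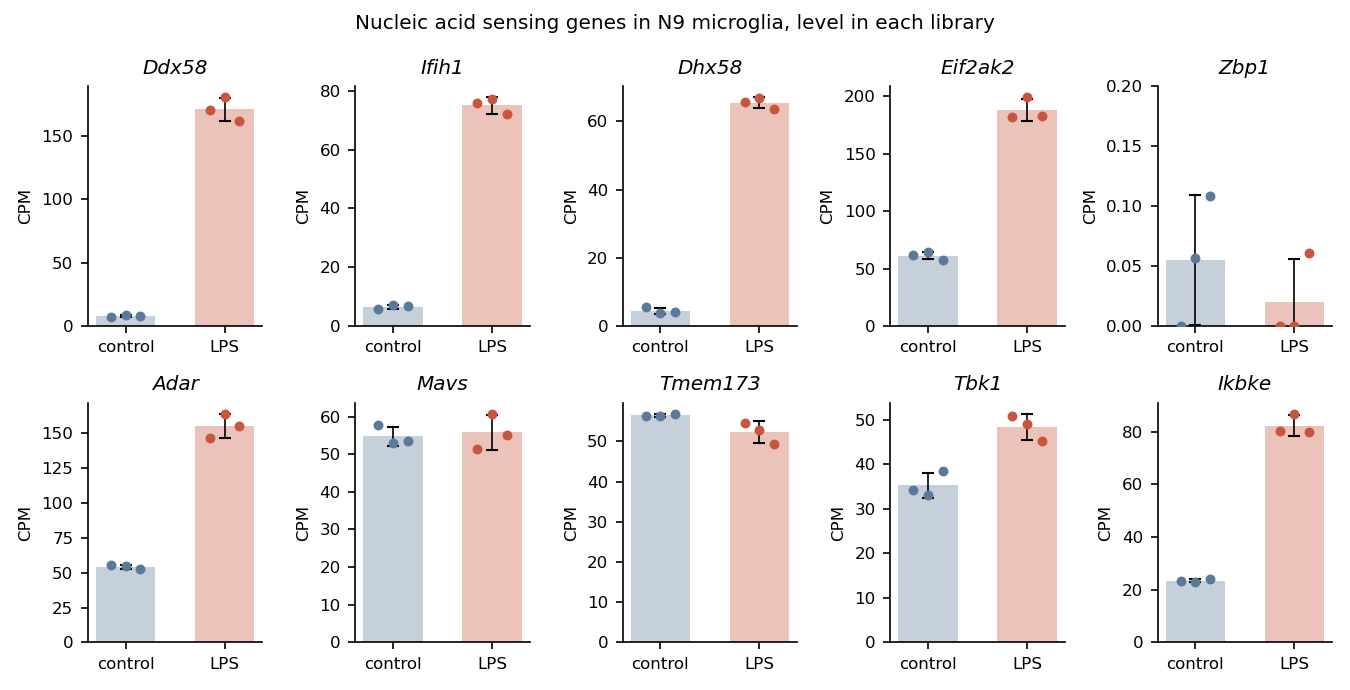
Level of each of the 10 sensing genes in CPM (vertical axes, each from 0 and on its own scale) in 3 control and 3 LPS libraries. Points are libraries, bars are group means and error bars are SD (n = 3). For Ddx58 the LPS libraries lie between 162 and 180.3 CPM, above the control libraries at 7.18 to 8.73 CPM, and Zbp1 stays at or below 0.108 CPM.

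Among the sensors, Ddx58 had the highest fold change. This gene (ENSMUSG00000040296, chromosome 4, 40203773 to 40239828, minus strand of GRCm38) encodes RIG-I, which recognizes short double-stranded RNA with a triphosphate end. Control libraries 1 to 3 held 123, 154 and 152 of its reads, and LPS libraries 1 to 3 held 2689, 2957 and 2661. The LPS libraries were close together and far above the control libraries. Ddx58 rose from 8.03 ± 0.785 to 171 ± 9.16 CPM (SD, n = 3). The log2 fold change was 4.41 ± 0.07 (SE, 95% interval 4.25 to 4.56, edgeR adjusted p = 1.7e-15), which ranked 47 among the tested genes.

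Dhx58 (ENSMUSG00000017830, chromosome 11, 100694884 to 100704271, minus strand) encodes LGP2, a helicase related to RIG-I that lacks the signaling domains through which RIG-I and MDA5 engage MAVS. Control libraries held 94, 67 and 76 of its reads and LPS libraries 1037, 1097 and 1046. Control replicate 1 was the highest of the control libraries, and all LPS libraries lay well above it. The level rose from 4.46 ± 0.903 to 65.4 ± 1.62 CPM (SD, n = 3), and the log2 fold change was 3.88 ± 0.10 (SE, 95% interval 3.66 to 4.10, edgeR adjusted p = 4.0e-13). The coefficient of variation was 20.3% among the control libraries and 2.48% among the LPS libraries.

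Ifih1 (ENSMUSG00000026896, chromosome 2, 62595798 to 62646255, minus strand) encodes MDA5, the sensor of long double-stranded RNA. Its reads numbered 100, 125 and 125 without and 1198, 1268 and 1183 with LPS. As with the other receptors, the groups were far apart and did not overlap. Ifih1 rose from 6.55 ± 0.642 to 75.1 ± 2.74 CPM (SD, n = 3), and the log2 fold change was 3.52 ± 0.08 (SE, 95% interval 3.34 to 3.69, edgeR adjusted p = 9.3e-14).

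**Figure D2:**
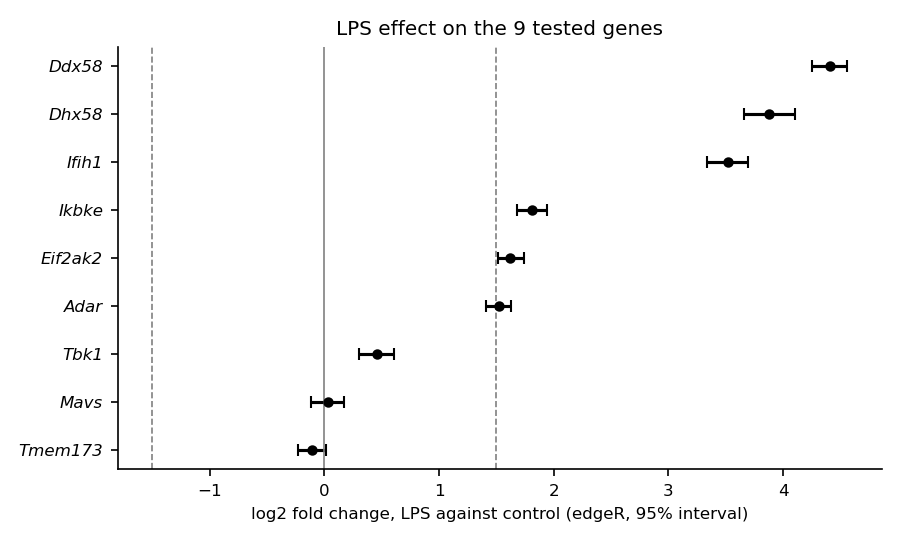
Log2 fold change of the 9 tested genes, LPS against control, from edgeR (horizontal axis), with 95% intervals. Dashed lines mark a log2 fold change of 1.5 in either direction. The RIG-I-like receptors lie between 3.52 and 4.41, Ikbke, Eif2ak2 and Adar between 1.52 and 1.81, and the interval of Adar crosses the dashed line.

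The make-up of the receptor family was compared on levels per kilobase of gene length (CPM per kb), since longer transcripts give more reads. For Dhx58, Eif2ak2, Adar and Ikbke the gene length equalled all annotated exon bases of the gene, which can exceed the length of a single transcript. Levels per kilobase are thus no exact measure of transcript number. Ddx58 made up 29.9%, 37.9% and 35.9% of the summed level of the 3 receptors without LPS (replicates 1 to 3), and 45.1%, 46.1% and 44.8% with LPS. The share of Ddx58 was higher in every LPS library than in any control library, with means of 34.5% ± 4.18 and 45.4% ± 0.66 (SD, n = 3; two-sided exact permutation test, p = 0.1, the smallest that 3 against 3 samples allow). The share of Ifih1 was 24.3% ± 2.97 in control and 17.2% ± 0.148 in LPS libraries (SD, n = 3; exact permutation p = 0.1), again without overlap. The share of Dhx58 was 41.1% ± 7.15 and 37.4% ± 0.565 (SD, n = 3; exact permutation p = 0.7), with overlapping groups, and control replicate 1 was the highest library at 49.2%. Without control replicate 1 the difference of Dhx58 was 0.347 percentage points in place of -3.68. A test of 3 against 3 samples cannot pass 0.05, so these shares are descriptions of the libraries.

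**Figure D3:**
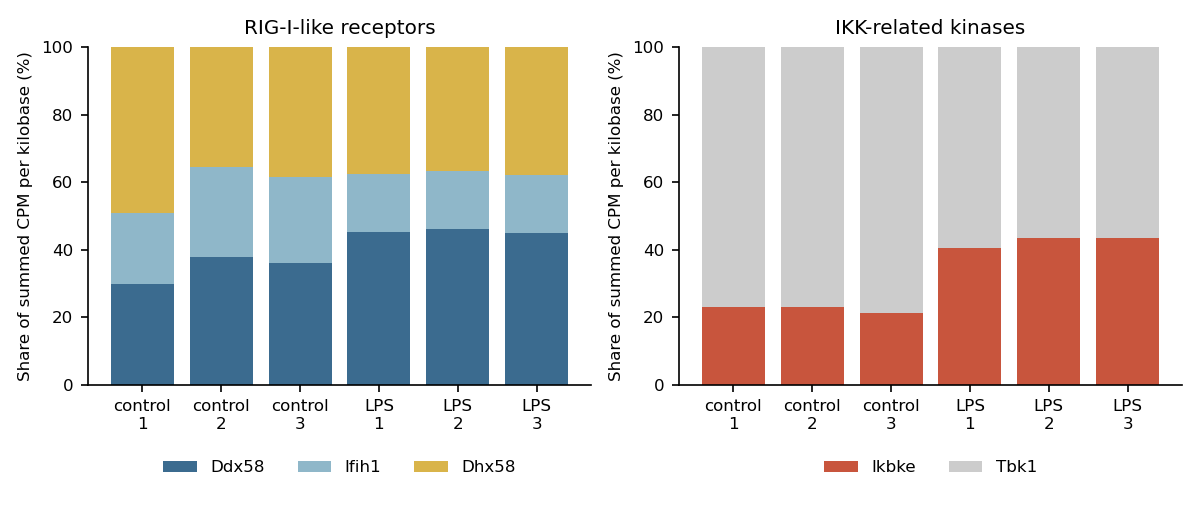
Share of each gene in the summed CPM per kilobase of its family (vertical axis, %), in each library. On the left, Ddx58 is 29.9% to 37.9% of the RIG-I-like receptors in control and 44.8% to 46.1% in LPS libraries, and on the right Ikbke is 21.3% to 23.0% of Ikbke and Tbk1 together in control and 40.6% to 43.4% in LPS libraries.

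Eif2ak2, Adar and Zbp1 also bind double-stranded or Z-form nucleic acids. Eif2ak2 and Adar were expressed in control cells and rose with LPS, whereas Zbp1 had at most 2 counts in any library. Eif2ak2 (ENSMUSG00000024079, chromosome 17, 78852564 to 78882573, minus strand) encodes PKR, the kinase that phosphorylates the translation initiation factor eIF2. Control libraries held 1053, 1132 and 1073 of its reads and LPS libraries 2876, 3255 and 3012. The lowest LPS library exceeded the highest control library by a wide margin. The level went from 61.1 ± 3.24 to 188 ± 9.06 CPM (SD, n = 3), and the log2 fold change was 1.62 ± 0.05 (SE, 95% interval 1.51 to 1.74, edgeR adjusted p = 5.2e-12).

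Adar (ENSMUSG00000027951, chromosome 3, 89715022 to 89753446, plus strand) encodes the enzyme that converts adenosine to inosine in double-stranded RNA. Its reads numbered 948, 967 and 978 without and 2321, 2696 and 2551 with LPS, without overlap. LPS replicate 1 was the lowest and LPS replicate 2 the highest of the stimulated samples. Adar rose from 54.3 ± 1.45 to 156 ± 8.66 CPM (SD, n = 3), and the log2 fold change was 1.52 ± 0.05 (SE, 95% interval 1.41 to 1.63, edgeR adjusted p = 7.5e-12). The increase passed the adjusted p in all 15 alternative fits, but the size lay at the threshold of 1.5. It was 1.49 without control replicate 3, 1.48 without LPS replicate 2, 1.47 with upper-quartile normalization and 1.49 without control replicates 2 and 3, and Adar was no DEG in these 4 fits. Tested for exceeding the 1.5 threshold itself (glmTreat), neither Adar nor Eif2ak2 was called. Adar is transcribed from several starts into longer and shorter forms, which a count per gene cannot tell apart. It shares 1365 of its 8118 exon bases with Chrnb2 on the other strand, which had 25 to 38 counts per library, and whether the authors' counting used strand is not given in the sources used here. Dhx58, Eif2ak2 and Ikbke also overlap noncoding genes on the other strand, each with 8 counts or fewer in every library.

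Zbp1 (ENSMUSG00000027514, chromosome 2, 173206612 to 173218923, minus strand) had 0, 1 and 2 counts in control libraries and 0, 0 and 1 in LPS libraries. Transcripts of this sensor were barely detected in either group. With 3 counts corresponding to between 0.161 and 0.19 CPM, both groups were at or under the limit that these depths can resolve. The gene was below the filter on low counts, no fold change is given, and a difference was not detectable at this depth.

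The adaptors Mavs and Tmem173 were expressed in both groups and did not pass the test. Mavs (ENSMUSG00000037523, chromosome 2, 131234063 to 131248025, plus strand) encodes the mitochondrial protein on which RIG-I and MDA5 assemble. Control libraries held 988, 936 and 997 of its reads and LPS libraries 813, 996 and 905, and the groups overlapped. The level was 54.8 ± 2.52 and 55.8 ± 4.64 CPM (SD, n = 3), and the log2 fold change was 0.03 ± 0.07 (SE, edgeR adjusted p = 0.793). The 95% interval of -0.12 to 0.17 bounds the size of any difference.

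Tmem173 (ENSMUSG00000024349, chromosome 18, 35733678 to 35740554, minus strand) encodes STING, the endoplasmic reticulum adaptor for cytosolic DNA. Its reads numbered 963, 993 and 1056 without and 861, 867 and 809 with LPS. The normalized control libraries lay within 56.2 to 56.8 CPM, and every LPS library, at 49.3 to 54.6 CPM, was below them. Such a separation downward was seen for 21.5% of all tested genes. The log2 fold change was -0.11 ± 0.06 (SE, 95% interval -0.23 to 0.01, edgeR adjusted p = 0.148). With upper-quartile normalization it was -0.16 at an edgeR adjusted p of 0.0408, the only setting of 15 in which Tmem173 was called, and over the 15 settings the adjusted p ranged up to 0.433.

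The paralogous kinases Tbk1 and Ikbke both rose, Ikbke by more. Tbk1 (ENSMUSG00000020115, chromosome 10, 121546455 to 121586787, minus strand) is broadly expressed and phosphorylates IRF3 downstream of MAVS and STING. Control libraries held 585, 586 and 714 of its reads and LPS libraries 803, 805 and 742. After normalization the control libraries lay at 33.2 to 38.4 CPM and the LPS libraries at 45.2 to 50.9 CPM, without overlap. The log2 fold change was 0.46 ± 0.07 (SE, 95% interval 0.30 to 0.61, edgeR adjusted p = 1.9e-04), well under the DEG threshold.

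Ikbke (ENSMUSG00000042349, chromosome 1, 131254343 to 131279606, minus strand) encodes IKK-epsilon, known as an inducible kinase of immune cells. Its reads numbered 400, 403 and 447 without and 1265, 1421 and 1311 with LPS. The spread within each group was small beside the distance between them. The level went from 23.4 ± 0.603 to 82.2 ± 3.85 CPM (SD, n = 3), and the log2 fold change was 1.81 ± 0.06 (SE, 95% interval 1.68 to 1.94, edgeR adjusted p = 5.4e-12). The 95% intervals of Ikbke and Tbk1 did not overlap. Per kilobase, Ikbke made up 22.4% ± 0.907 of the summed level of both kinases in control and 42.4% ± 1.61 in LPS libraries (SD, n = 3; two-sided exact permutation test, p = 0.1, the smallest possible). Tbk1 was thus the higher of the pair per kilobase in every library. This order rests on the gene lengths, 9018 bases for Ikbke and 3910 for Tbk1, and before division by length Ikbke was the higher in every LPS library, at 79.8 to 86.7 CPM.

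**Figure D4:**
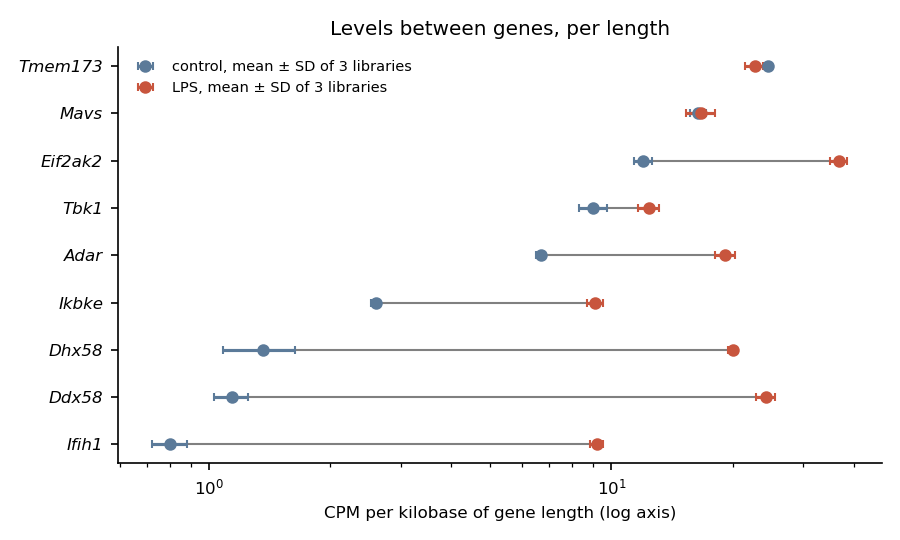
Level of the 9 tested genes in CPM per kilobase of gene length (horizontal log axis), control and LPS, as mean ± SD of 3 libraries. The RIG-I-like receptors move from the lowest positions, 0.802 to 1.36, to 9.2 to 24.2, while Mavs and Tmem173 stay between 16.4 and 24.5.

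Levels between genes were compared per kilobase. In control cells the order from low to high was Ifih1 at 0.802, Ddx58 at 1.14, Dhx58 at 1.36, Ikbke at 2.6, Adar at 6.68, Tbk1 at 9.02, Eif2ak2 at 12, Mavs at 16.4 and Tmem173 at 24.5 CPM per kb. On this scale the adaptors stood highest and the RIG-I-like receptors lowest, and of the neighbours in this order only Ddx58 and Dhx58 had overlapping ranges of mean ± SD. The top of the order depends on the division by gene length, since in CPM Eif2ak2 was the highest in control cells, at 61.1, with Tmem173 at 56.4 and Mavs at 54.8. With LPS the order was Ikbke at 9.12, Ifih1 at 9.2, Tbk1 at 12.4, Mavs at 16.7, Adar at 19.2, Dhx58 at 20, Tmem173 at 22.7, Ddx58 at 24.2 and Eif2ak2 at 36.8 CPM per kb. The ranges of mean ± SD then overlapped for the neighbours Ikbke and Ifih1, Adar and Dhx58, and Tmem173 and Ddx58, and only Ikbke and Ifih1 differed by less than either SD. The summed level of the 3 receptors was 0.198, 0.206 and 0.202 times that of Mavs in the control libraries and 3.48, 3.06 and 3.11 times that of Mavs in the LPS libraries. The sum was thus below Mavs in control and above it in LPS libraries, while Ifih1 alone stayed below Mavs with LPS, at 9.2 against 16.7 CPM per kb. Before division by length Ifih1 was above Mavs with LPS, at 75.1 against 55.8 CPM, and Tmem173 was at 52.2 CPM, so the order with LPS depends on gene length too. The ratio of Adar to Eif2ak2 was 0.56 ± 0.0191 in control and 0.521 ± 0.0126 in LPS libraries (SD, n = 3).

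Other genes of the pathway were taken from 8 lists with 90 genes, of which 79 were tested. Of these, 4 were DEG, all higher with LPS, beside the 2.4% of all tested genes. Regardless of fold size, 31 were higher and 9 lower by edgeR, against 18.7% and 15.7% of all tested genes. The same shares of all tested genes stand beside the counts of each list below. The median log2 fold change was 0.11, against 0.00 over all tested genes. Of the 79, 39 passed the test in neither direction.

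**Figure D5:**
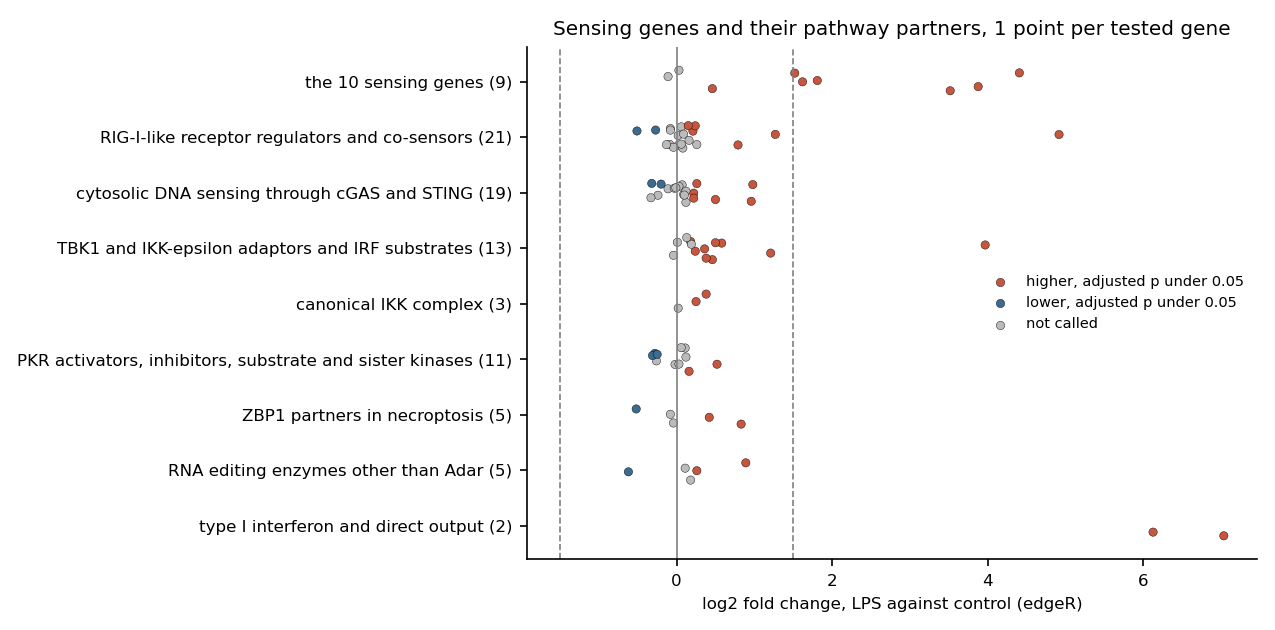
Log2 fold change (edgeR, horizontal axis) of the sensing genes and of their pathway partners by list, 1 point for each tested gene, with the number tested in parentheses. Red and blue mark genes higher or lower at an adjusted p under 0.05, grey marks the others, and dashed lines mark 1.5. Outside the top row, 4 points lie beyond the lines: Ddx60, Irf7, Ccl5 and Cxcl10.

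Among regulators and co-sensors of the RIG-I-like receptors, 21 of 22 genes were tested, and 6 were higher and 2 lower. Ddx60, a helicase proposed to assist RIG-I, had 6, 7 and 19 counts in control and 311, 337 and 245 in LPS libraries, and the log2 fold change was 4.92 ± 0.25 (SE, edgeR adjusted p = 8.9e-10). Control replicate 3 was at 1.02 CPM, against 0.35 and 0.397 CPM in control replicates 1 and 2. The size of this fold change thus rests on few control reads and depends on that library. Trim25, the ubiquitin ligase known for activating RIG-I, rose from 233 ± 1.12 to 562 ± 10.8 CPM (SD, n = 3), with 1.27 ± 0.04 as its log2 fold change (SE, edgeR adjusted p = 1.7e-12). The 2 lower genes, named after their values were seen, were Nlrx1, a mitochondrial regulator of MAVS, at -0.51, and the phosphatase subunit Ppp1cc, at -0.27. Without control replicate 2, or control replicates 2 and 3 together, 1 gene of the list was lower in place of 2. The median of the list was 0.06.

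In the DNA branch, 19 of 22 genes were tested, 6 were higher and 2 lower, and none was a DEG by edgeR or by DESeq2 (7 were higher and 4 lower at an unadjusted edgeR p under 0.05, beside 2779 and 2481 of all 12296 tested genes). Mb21d1, which encodes the DNA sensor cGAS, rose from 42.3 ± 0.415 to 59.7 ± 1.6 CPM (SD, n = 3), and the log2 fold change was 0.50 ± 0.05 (SE, edgeR adjusted p = 4.6e-06). Samhd1, a nucleotide hydrolase that restricts viral DNA synthesis, rose with 0.98 ± 0.05 as its log2 fold change (SE, edgeR adjusted p = 2.4e-09). Mre11a and Xrcc6, proteins of DNA repair named after their values were seen, were lower, at -0.32 and -0.20, and the lower genes of the list numbered 1 without LPS replicate 2 and 4 with upper-quartile normalization. Trex1, the exonuclease that removes cytosolic DNA, was listed at 0 counts in every library. All of its 1147 exon bases are also exon bases of Atrip on the same strand, so that this 0 does not measure its expression.

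Of the adaptors of TBK1 and IKK-epsilon and their IRF substrates, 13 of 15 genes were tested, and 9 were higher and none lower (none also at an unadjusted edgeR p under 0.05 and by DESeq2). Irf7, the interferon-inducible IRF, had 176, 154 and 159 counts in control and 2243, 2490 and 2241 in LPS libraries, and the log2 fold change was 3.97 ± 0.07 (SE, edgeR adjusted p = 6.4e-15). Irf3, its constitutive relative, was at 26.6 ± 1.73 and 25.9 ± 1.53 CPM (SD, n = 3), which is -0.04 on the log2 scale with a 95% interval of -0.22 to 0.13 (edgeR adjusted p = 0.744). Irf7 was thus far above its control level in every LPS library, while the libraries of Irf3 overlapped. Sqstm1, the autophagy receptor p62, rose by 1.21 (edgeR adjusted p = 1.8e-12), and the scaffolds Tank and Traf3 rose by 0.36 and 0.24 (edgeR adjusted p = 1.9e-04 and 0.00207).

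The canonical IKK complex, which activates NF-kappa B and is related to TBK1 and IKK-epsilon, had small differences. Ikbkb and its regulatory subunit Ikbkg rose by 0.38 and 0.25 on the log2 scale (edgeR adjusted p = 9.3e-06 and 0.00722), and Chuk had a log2 fold change of 0.02 (95% interval -0.11 to 0.16, edgeR adjusted p = 0.82). None of the 3 was a DEG by edgeR or DESeq2, although 2 were higher at an unadjusted edgeR p under 0.05, beside 2779 of all 12296 tested genes. Without control replicates 2 and 3, 1 was higher.

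Around PKR, all 11 listed genes were tested, and 2 were higher and 3 lower, beside 18.7% and 15.7% of all tested genes. Eif2s1, the PKR substrate, showed a log2 fold change of 0.11 ± 0.05 (SE, edgeR adjusted p = 0.0887). The sister kinases that phosphorylate the same site and the higher and lower genes of this list are named after their values were seen. Eif2ak3 and Eif2ak4 fell by 0.31 and 0.25 (edgeR adjusted p = 0.00204 and 0.0104), and Eif2ak1 was at -0.02 (edgeR adjusted p = 0.794). The third lower gene was Dnajc3, a PKR inhibitor, at -0.28. The 2 higher genes were Ppp1r15a, at 0.52, and Ppp1r15b, at 0.16 (edgeR adjusted p = 1.7e-04 and 0.017). The higher genes numbered 1 with upper-quartile normalization and without control replicate 3, LPS replicate 2 or LPS replicate 3. Without control replicates 2 and 3 together, 1 gene was higher and 1 lower.

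All 5 partners of ZBP1 in cell death were tested, 2 were higher and 1 lower, beside a sensor that was itself barely detected. Mlkl, the executioner of necroptosis, rose from 37.7 ± 1.54 to 67.1 ± 2.1 CPM (SD, n = 3), and its log2 fold change was 0.83 (edgeR adjusted p = 2.9e-08). Ripk3, the kinase that acts on it, fell from 50.8 ± 3.74 to 35.4 ± 1.7 CPM (SD, n = 3), with a log2 fold change of -0.52 (edgeR adjusted p = 3.3e-05). Of the 7 editing enzymes other than Adar, 5 were tested, 2 were higher and 1 lower. Adarb1, the paralog that edits many neuronal transcripts, rose from 20.4 ± 0.588 to 37.8 ± 0.304 CPM (SD, n = 3), which is 0.89 on the log2 scale (edgeR adjusted p = 1.4e-07), while the cytidine deaminase Apobec1, named after its value was seen, was at -0.62. By DESeq2, with upper-quartile normalization, and without control replicate 1, control replicate 2 or LPS replicate 2, 1 editing enzyme was higher.

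At the output of the pathway, the interferon transcripts listed were at or under 1 count in every library at 6 h, while 2 interferon-linked chemokines rose. Ifnb1 had 0 counts in all control libraries and 1, 1 and 0 in LPS libraries, at or under the limit of detection, and Ifna4 and Ifna2 had 0 in every library. Cxcl10 rose from 1.58 ± 0.289 to 208 ± 18.6 CPM and Ccl5 from 0.399 ± 0.262 to 28.2 ± 2.79 CPM (SD, n = 3), with log2 fold changes of 7.04 and 6.13 (edgeR adjusted p = 1.1e-15 and 9.5e-12). Ccl5 had 12, 4 and 5 reads in the control libraries, so its fold change rests on few reads. Both chemokines are also known to respond to other pathways.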

How the data were processed

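RNA-seq of N9 microglia gave 6 libraries, grouped by the labels of the series into 3 control and 3 LPS samples. The authors deposited raw read counts per gene, made with featureCounts version 1.5.0-p3 on mm10 according to the submitters' processing notes, after sequencing by Novogene. The aligner, the annotation and the use of strand are not given in the sources used here. A second deposited table holds the authors' own fold changes and p-values beside 18 columns that hold single samples and 2 that hold group means, none of which was used. Every row of the count table had a gene name. Of the 10 genes, 9 had the position of GENCODE M21 on GRCm38, and Tmem173 began 1 base apart.

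Counts were tested with edgeR version 4.0.16 (R 4.3.3): filterByExpr by group, TMM normalization, prior count 0.125, quasi-likelihood test of LPS against control without a replicate term, and Benjamini-Hochberg adjustment over 12296 genes. The standard error is the log2 fold change divided by the square root of F. Total counts lay between 16363767 and 17956772 per library, and since PCR copies were not identified, limits from 3 counts cover counting error only. Replicates of a group differed by more than sampling noise (chi-square per gene 3.61 to 7.82). Shares were tested by exact permutation in scipy version 1.17.1. Figures used matplotlib version 3.10.9. The fits were tested on simulated counts.

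Alternatives were DESeq2 version 1.42.0, RLE and upper-quartile factors, no filter, a filter at a mean of 10 counts, robust dispersion, a prior count raised to 2, glmTreat, a replicate block, each library left out, and, added after seeing the data, control replicates 2 and 3 left out together. The genes and lists were chosen with earlier results of these data known. Named partners are those at an adjusted p under 0.05 with an absolute log2 fold change over 1, and a fixed set of core pathway genes whatever their values. The other genes named are marked or belong to lists of 5 or fewer.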

Additional observations from a re-analysis of the deposited data

How the results depend on the processing

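For the 9 tested sensing genes, 134 of 135 log2 fold changes under 15 alternatives kept their direction and call, where a gene that was not called had no direction to keep. The exception was Tmem173, called lower with upper-quartile normalization at -0.16, so that 1 of the 10 genes was then lower. The number of the 10 genes that were DEG lay between 4 (glmTreat) and 6, and was 5 to 6 with each library left out. Over all genes, glmTreat called 183 DEG in place of 326, and leaving out control replicates 2 and 3 together left 1151 genes lower in place of 1927. That fit has 1 control library, which was assumed to vary like the LPS libraries. Shares without division by gene length gave a difference between LPS and control of -10.2 points for Ifih1 and 23.0 points for Ikbke, in place of -7.12 and 20. The difference for Dhx58 ran from -6.47 to 0.347 points with each library left out. Of the counts per partner list, 224 kept within 1.5 times their value and 16 did not, all between 1 and 4 genes.

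Replicate numbers are shared by the groups, but same-numbered samples correlated by only 0.131, 0.0484 and 0.0049 in their deviations from the group means, and not every sample correlated best with its own number. With the replicate block, 2454 genes were higher and 2020 lower in place of 2294 and 1927, and the calls of the 10 genes did not change. The paired exact permutation of the shares cannot go below p = 0.25. Depth limits the result for Zbp1, Ifnb1 and, in control cells, Ddx60 and Ccl5.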
